A study of Mus musculus with 30 samples.

Results

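The 36 genes described here drive DNA replication and mitosis. They were taken as a list of names and found on the arrays as the probe sets that name one of them alone. Of the 36, 35 had such a probe set, 55 probe sets in all, out of 15964 genes named alone on the arrays. They were split by role into 18 genes of S phase and 18 genes of G2 and mitosis. Ccnb1, which encodes cyclin B1, was the gene without a probe set, and the probe set of Tyms, thymidylate synthase, was too dim to be tested, which left 17 genes of each kind. RNA was from a Sox1-GFP line of mouse embryonic stem (ES) cells derived from strain 129, with a green fluorescent reporter in Sox1, a gene of early neuroectoderm. There were 3 samples of ES cells sorted for E-cadherin. The other 7 samples were of cells grown as floating aggregates in serum-free medium (the SFEB culture): unsorted cells of day 1, day 2 E-cadherin-positive cells, day 2 E-cadherin-negative cells, day 3 Sox1-negative cells, and Sox1-positive cells of days 3, 4 and 5, with 1 sample of each. All 10 samples carry the same reporter, and every sample was run on all 3 Affymetrix mouse U74 chips (A, B and C).

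Cells copy their DNA once in S phase and separate the copies in mitosis. Before S phase the MCM2-7 helicase is loaded on origins by Cdc6, and in S phase it is fired as a complex with Cdc45. Polymerase alpha starts the strands, RFC loads the PCNA clamp, and DNA ligase 1 joins the fragments. Entry to mitosis needs Cdk1 with B-type cyclins, the Aurora and Plk1 kinases drive spindle assembly, and the spindle checkpoint (Bub1, Bub1b, Mad2l1) holds back Cdc20, the activator of the ubiquitin ligase APC/C, until chromosomes are attached. S phase genes are known as targets of E2F factors, and mitosis genes of the B-MYB, MuvB and FoxM1 factors acting through CHR elements and of NF-Y acting through CCAAT boxes. ES cells are known for a short G1 phase and a large share of cells in S phase.

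Promoters are shown for the 5 genes with the largest differences between Sox1-positive and ES cells (Mcm6, Cdc20, Bub1b, Rrm1 and Aurka). Each is the 250 bases before the start of the gene, 5′ to 3′ on the strand of the gene, from RefSeq on GRCm38.p6. Capitals mark 3 kinds of letters, found on either strand: the E2F octamers TTTCCCGC, TTTCGCGC, TTTGCCGC and TTTGGCGC, the CHR hexamers TTTGAA and TTCGAA, and CCAAT. Cdc20 lies at chr4:118437344-118437593 (minus strand), Aurka at chr2:172370571-172370820 (minus), Bub1b at chr2:118597961-118598210 (plus), Rrm1 at chr7:102441445-102441694 (plus) and Mcm6 at chr1:128359706-128359955 (minus).
Cdc20: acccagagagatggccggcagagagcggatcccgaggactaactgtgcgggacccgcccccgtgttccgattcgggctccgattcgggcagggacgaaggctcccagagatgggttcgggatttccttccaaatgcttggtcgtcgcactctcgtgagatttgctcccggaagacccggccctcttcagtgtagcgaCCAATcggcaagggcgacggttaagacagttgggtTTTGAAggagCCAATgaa
Aurka: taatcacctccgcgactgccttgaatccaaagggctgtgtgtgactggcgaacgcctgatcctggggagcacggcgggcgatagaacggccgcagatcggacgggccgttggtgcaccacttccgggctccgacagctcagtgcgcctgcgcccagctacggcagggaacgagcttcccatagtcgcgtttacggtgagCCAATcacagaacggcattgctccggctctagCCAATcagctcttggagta
Bub1b: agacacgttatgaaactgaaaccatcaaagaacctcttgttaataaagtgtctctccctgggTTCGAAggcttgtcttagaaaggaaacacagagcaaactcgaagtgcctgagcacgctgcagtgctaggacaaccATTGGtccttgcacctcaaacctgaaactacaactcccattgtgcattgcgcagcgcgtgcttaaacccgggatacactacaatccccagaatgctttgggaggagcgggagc
Rrm1: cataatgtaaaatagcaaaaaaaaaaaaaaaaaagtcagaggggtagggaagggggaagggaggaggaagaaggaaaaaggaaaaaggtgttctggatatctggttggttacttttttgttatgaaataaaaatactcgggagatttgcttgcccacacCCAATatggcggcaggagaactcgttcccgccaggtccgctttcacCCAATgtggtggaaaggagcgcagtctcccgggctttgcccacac
Mcm6: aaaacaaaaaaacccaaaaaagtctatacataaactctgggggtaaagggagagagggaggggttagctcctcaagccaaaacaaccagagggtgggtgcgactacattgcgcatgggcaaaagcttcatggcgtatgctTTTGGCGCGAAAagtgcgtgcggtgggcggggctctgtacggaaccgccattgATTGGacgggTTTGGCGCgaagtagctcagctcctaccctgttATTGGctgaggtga
Cdc20 held 2 CCAAT boxes and 1 CHR hexamer, the hexamer between bases 18 and 13 before the start. Aurka held 2 CCAAT boxes, Bub1b 1 CCAAT box and 1 CHR hexamer, Rrm1 2 CCAAT boxes, and Mcm6 3 E2F octamers, of which a pair overlapped, and 2 CCAAT boxes. A promoter was matched for 31 of the 36 genes (16 of S phase and 15 of mitosis, the first listed where a gene had several). E2F octamers stood in 6 of the 16 S phase promoters (37.5%) and in 1 of the 15 mitosis promoters (6.67%), that of Cdk1, against 1.86% of all 32851 promoters of this length. CHR hexamers stood in 3 of 16 (18.8%) and 7 of 15 (46.7%), against 17.1% of all. CCAAT stood in 11 of 16 (68.8%) and 13 of 15 (86.7%), against 33.9% of all, and 2 or more CCAAT boxes in 6 and 10 promoters. These are matches of letters in a window of fixed length, not sites shown to be bound.

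The arrays had been scaled before deposit to near-equal trimmed means, so a change in total RNA per cell cannot be seen. The labels were borne out by their markers: all 7 pluripotency genes of a short list fell and all 7 neural progenitor genes rose in Sox1-positive cells against ES cells. Sox1 itself had a mean intensity of 156 ± 17.2 (SD, n = 3) in ES cells and 290 ± 33.1 (SD, n = 3) in Sox1-positive cells. The 3' to 5' ratio of the actin control probe sets on U74Av2, a sign of RNA quality, was 1.70 in ES 3, 1.34 on day 5 and 1.33 in day 2 E-cadherin-negative cells, and 0.939 to 1.15 in the other 7 samples. Of 7 fibroblast markers tested, 4 were above and 3 below their ES means in Sox1-positive cells (median log2 difference 0.06), and limma called 0, with 2 at an unadjusted p under 0.05. Among the 3 below, Col1a1 had 366, 912 and 948 in ES 1, 2 and 3 and 207 to 497 in the 7 aggregate samples, and Acta2 had 216, 2490 and 1760 in the ES samples and 65.6 to 340.1 in the others. Nothing in the labels says that the ES samples came from separate cultures, so the p-values rest on a spread among samples that could be technical. Each Sox1-positive sample came from its own day, so their SD also holds any change over days.

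Few of the replication and mitosis genes were called as different from ES cells through 5 days of aggregate culture, and their number changed with the processing. In Sox1-positive cells against ES cells, limma called 1 of the 34 genes higher (Rrm1) and 1 lower (Cdc20) at a Benjamini-Hochberg adjusted p under 0.05, beside 6.4% of 12941 genes higher and 6.17% lower. None of the 34 differed by more than 1 on the log2 scale (values as log2 of intensity plus 16), beside 13.3% of all genes. The median size of the difference was 0.215 for the 34 genes and 0.344 for all genes. The 34 genes also varied less among the 3 ES samples alone, with a median log2 range of 0.307, against 0.479 for all genes. That range passed 1 for 0 of the 34 genes, beside 14.8% of all genes. The smaller differences from ES cells are to be read against this smaller spread. In the 4 other aggregate samples against ES cells limma called 0 of 34, beside 0.00773% of all genes higher and 0.0232% lower, and 4 of 34 (11.8%) had an unadjusted p under 0.05, as did 1300 of all 12941 genes (10.0%). The comparison of the 3 Sox1-positive with the 4 other aggregate samples, which sets them against each other directly, called 0 of 34 as well, beside 0.61% of all genes higher and 1.14% lower. An unadjusted p under 0.05 was found there for 4 of 34 (11.8%) and for 2849 of all genes (22.0%). The first 2 comparisons share the ES samples. Whether a lower signal means fewer cells in a phase or less RNA per cell cannot be told apart in bulk RNA.

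**Figure D1:**
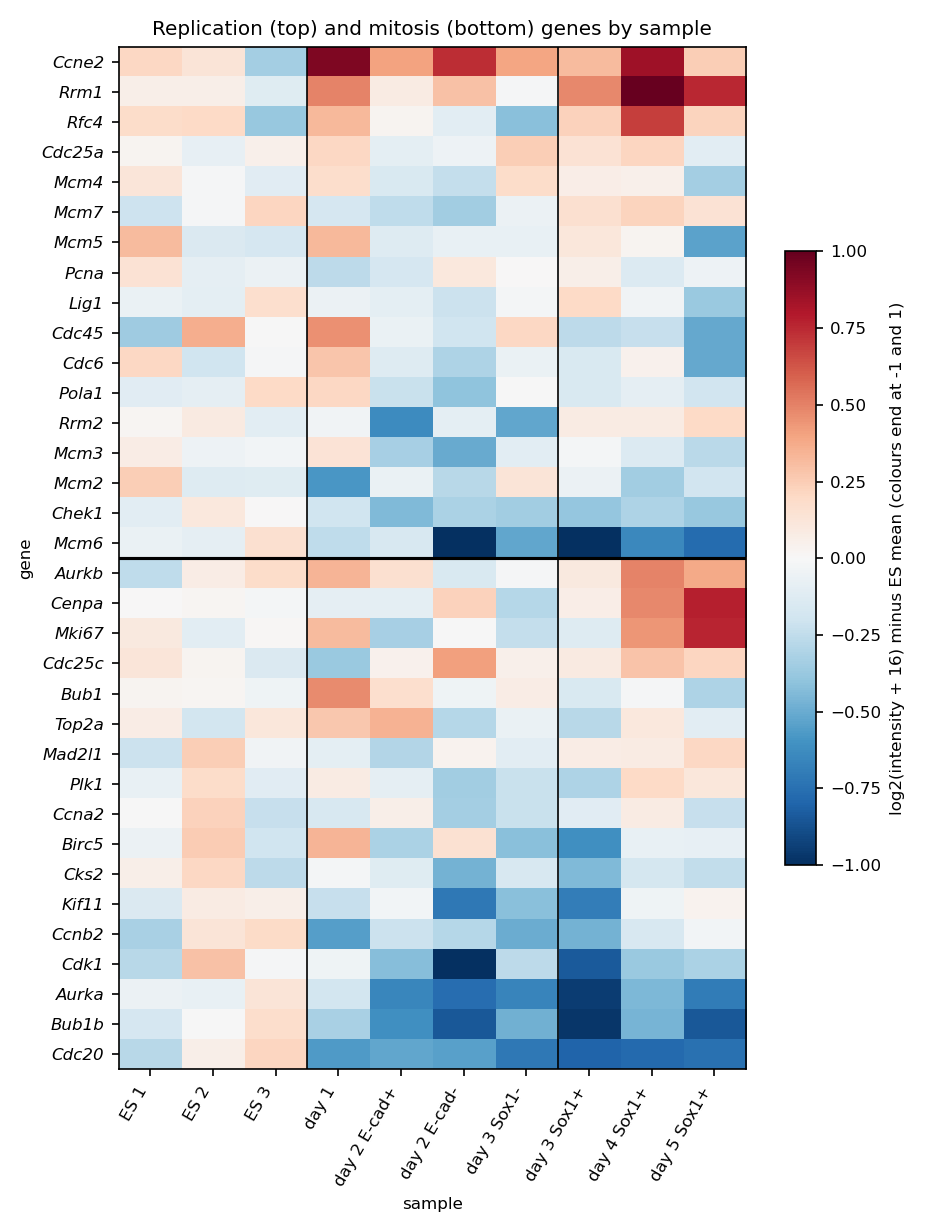
Difference of log2(intensity + 16) from the mean of the 3 ES samples, for 17 S phase genes (above the line) and 17 mitosis genes (below), in 10 samples, with red for higher and blue for lower. Cdc20, Bub1b and Aurka at the bottom are blue in all 7 aggregate samples, and most other rows hold both colours.

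Relative to ES cells the mean of the mitosis genes was below that of the S phase genes in 6 of the 7 aggregate samples, by small amounts. The median log2 difference of Sox1-positive from ES cells was -0.16 for the 17 mitosis genes (11 below 0 and 6 above) and -0.07 for the 17 S phase genes (11 and 6). For all genes it was -0.01, with 6602 of 12941 below 0. For the 4 other aggregate samples the medians were -0.15 (13 of 17 below 0) and -0.08 (12 of 17), beside 0.01 for all genes (6301 of 12941). The mean of the mitosis genes relative to ES cells was lowest in day 3 Sox1-positive cells, at -0.38, followed by day 2 E-cadherin-negative cells at -0.30, day 3 Sox1-negative cells at -0.27 and day 2 E-cadherin-positive cells at -0.17. Day 1 had -0.05, day 4 had -0.02 and day 5 had -0.07, within the range of the ES samples themselves (-0.09 to 0.09). The S phase genes had their highest mean on day 1 (0.12) and their lowest in day 2 E-cadherin-negative cells (-0.20), followed by day 5 (-0.16).

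The gap between the phases, as the mitosis mean minus the S phase mean, was -0.355 in day 3 Sox1-positive cells, -0.22 in day 3 Sox1-negative cells and -0.16 on day 1. It was -0.10 in day 2 E-cadherin-negative cells, -0.09 on day 4, -0.03 in day 2 E-cadherin-positive cells and 0.0897 on day 5, with an SD of 0.114 over the 3 ES samples. The ES samples had gaps of -0.128, 0.0892 and 0.0388. Day 1 and both day 3 samples lay below all of them, day 5 lay level with the highest, and the other 3 lay between them. These means describe chosen lists and were given no test. Markers of neurons, which have left the cell cycle, had means of 1.43 in day 2 E-cadherin-negative cells and 0.74, 0.49 and 1.93 in Sox1-positive cells of days 3, 4 and 5. Of the 10 markers, 0 lay below their ES means in day 2 E-cadherin-negative cells, and 4, 5 and 1 in Sox1-positive cells of days 3, 4 and 5. The marker means were 0.0513 on day 1, -0.036 in day 2 E-cadherin-positive cells and -0.0318 in day 3 Sox1-negative cells. The part of neurons in the levels of mitosis genes was not tested.

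**Figure D2:**
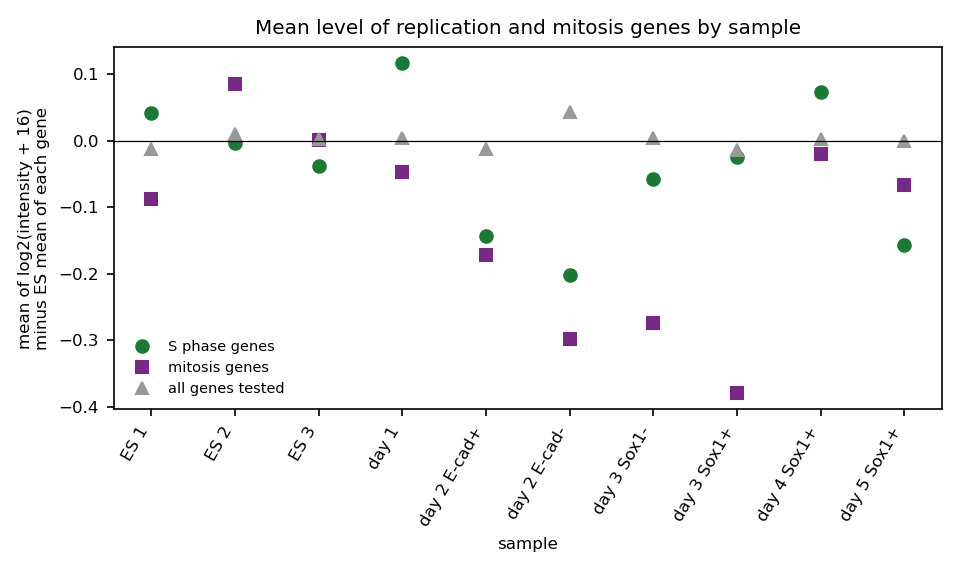
Mean over genes of log2(intensity + 16) minus the ES mean of each gene, per sample, for 17 S phase genes (circles), 17 mitosis genes (squares) and all 12941 genes tested (triangles). The mitosis genes sit lowest in day 3 Sox1-positive cells (-0.38), where the S phase genes are at -0.02.

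Among the spindle checkpoint and APC/C genes, Cdc20 had 7023, 8885 and 9875 in the ES samples. It had 5757 on day 1, 5922 and 5831 in day 2 E-cadherin-positive and -negative cells, 5180 in day 3 Sox1-negative cells, and 4891, 4969 and 5065 in Sox1-positive cells of days 3, 4 and 5. All 7 aggregate samples lay below all 3 ES samples, and the Sox1-positive samples lay below the 4 others as well. The mean fell from 8594 ± 1448 (SD, n = 3) to 4975 ± 87.0 (n = 3) in Sox1-positive cells, with a log2 change of -0.77 (SE 0.185) with a limma adjusted p of 0.0352. This call ended with no filter, without ES 2, ES 3, day 3, day 4 or day 5, and without ES 3 and day 5 together (highest adjusted p 0.182).

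Bub1b, the checkpoint protein BubR1, had 3423, 3826 and 4336 in ES cells. It had 3065 on day 1, 2510 and 2128 in the day 2 positive and negative sorts, 2756 in day 3 Sox1-negative cells and 1950, 2788 and 2134 in Sox1-positive cells. Every aggregate sample again lay below every ES sample, with day 1 nearest to them. The log2 difference of Sox1-positive cells was -0.76 (SE 0.212), which missed the threshold (limma adjusted p 0.0607). Bub1, its kinase partner, had 1107 to 1164 in ES cells, 1593 on day 1 and 917 on day 5, with a log2 difference of -0.16 (limma adjusted p 0.632). Dimmer probe sets of Bub1 went the other way, with 0.446 and 0.449 (limma adjusted p 0.565 and 0.214), and the latter was highest on day 5 (140). The checkpoint component Mad2l1 had 2171 to 3009 in ES cells and 2059 to 2924 in the aggregate samples, so all but 1 of the 7 lay within the ES range.

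Of the mitotic kinases, Aurka, which acts at the spindle poles, had 1276, 1263 and 1452 in ES cells and 1169 on day 1. It had 840.0 and 778 in the day 2 positive and negative sorts, 832 in day 3 Sox1-negative cells and 679, 967 and 811 in Sox1-positive cells. The groups did not overlap here either. Its log2 difference of Sox1-positive from ES cells was -0.70 (SE 0.190, limma adjusted p 0.0539). Aurkb, the kinase of centromeres and the midzone, went the other way, with 744 to 1015 in ES cells and 954, 1262 and 1166 in Sox1-positive cells, but its difference of 0.32 missed the threshold (limma adjusted p 0.373). A further probe set of Aurkb had -0.14. Plk1, the polo kinase, had 2258, 2706 and 2195 in ES cells, 2514 on day 1, 2226 and 1866 in the day 2 positive and negative sorts, 2028 in day 3 Sox1-negative cells and 1917, 2729 and 2574 in Sox1-positive cells. These values overlapped, with a log2 difference of 0.00 (limma adjusted p 0.996). The 2 dimmer probe sets of Plk1 had -0.30 and -0.52 and did not pass (limma adjusted p 0.61 and 0.212).

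**Figure D3:**
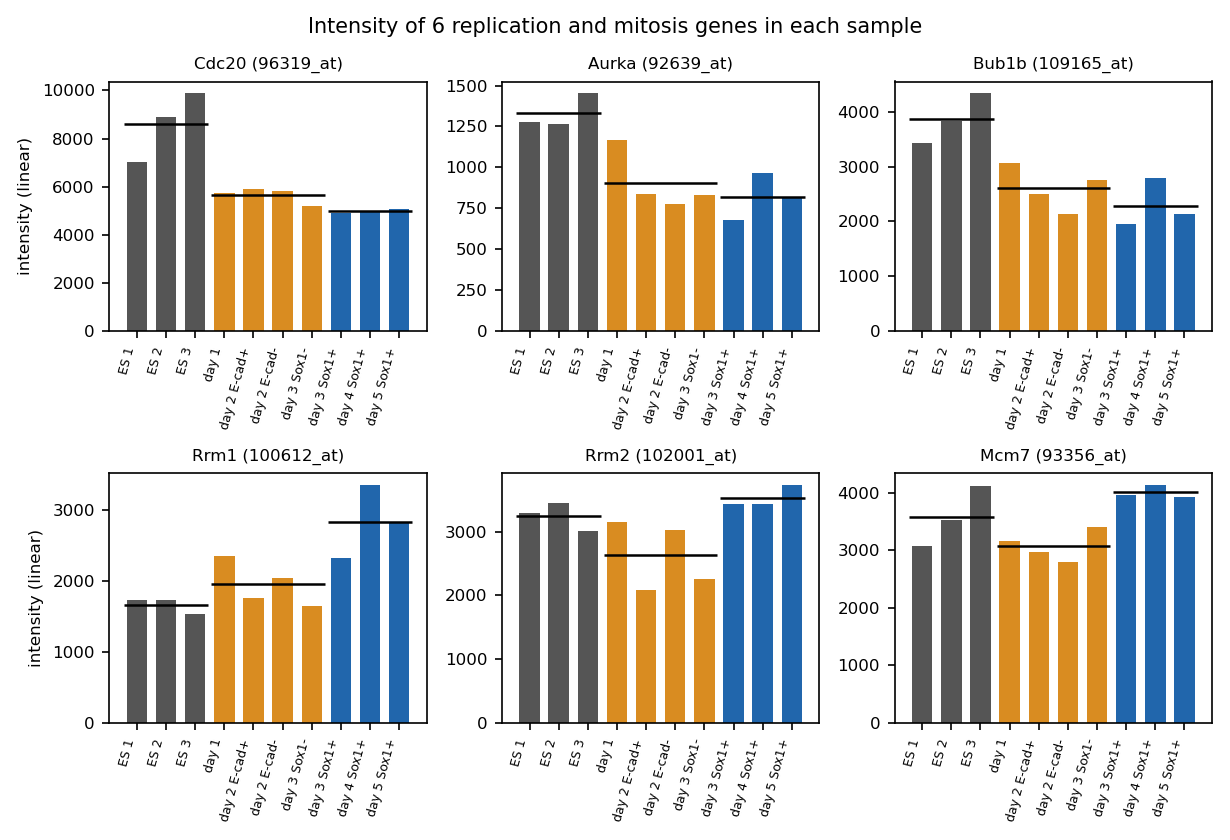
Linear intensity of Cdc20, Aurka, Bub1b, Rrm1, Rrm2 and Mcm7 in each of 10 samples (grey bars for ES, orange for other aggregate cells, blue for Sox1-positive cells), with a black line at the mean of each set. In the upper row every aggregate sample lies below every ES sample, whereas in the lower row Rrm1 is highest in day 4 Sox1-positive cells (3356).

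Cdk1, the kinase of mitotic entry, had 2657, 3947 and 3193 in ES cells, 3126 on day 1, 2392 and 1506 in the day 2 positive and negative sorts, 2687 in day 3 Sox1-negative cells and 1797, 2490 and 2587 in Sox1-positive cells. The day 2 E-cadherin-negative sample was the lowest and the Sox1-positive samples lay below the ES range, and their difference of -0.51 missed the threshold (limma adjusted p 0.211). Its partner Ccnb2, cyclin B2, had 5312 to 7619 in ES cells, 4542 to 5741 in the 4 other aggregate samples and 4794, 5943 and 6531 in Sox1-positive cells. Ccna2, cyclin A2, had 1740 to 2413 in ES cells, and 6 of the 7 aggregate samples lay within that range. The log2 differences in Sox1-positive cells were -0.22 for Ccnb2 and -0.09 for Ccna2 (limma adjusted p 0.593 and 0.84). Cdc25c, the phosphatase that activates Cdk1, had 0.20, and Cks2, a small Cdk1-binding protein, had -0.29 (limma adjusted p 0.546 and 0.41).

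Mki67, the gene of the Ki-67 antigen of cycling cells, had 1065, 923 and 1001 in ES cells, 1241 on day 1, 788 and 992 in the day 2 positive and negative sorts and 841 in day 3 Sox1-negative cells. In Sox1-positive cells it had 909.9 on day 3, 1359.7 on day 4 and 1702 on day 5, the highest value of the 10. Cenpa, the histone variant of centromeres, had 704 to 720.1 in ES cells and 745, 1002 and 1232 in Sox1-positive cells of days 3, 4 and 5, all above the ES samples. Neither passed against ES cells (log2 differences 0.36 and 0.44, limma adjusted p 0.42 and 0.247). A slope on day among the Sox1-positive samples was 0.45 per day for Mki67 and 0.36 for Cenpa (limma adjusted p 0.501 and 0.572). The ES samples were in this fit with a mean of their own and gave most of the spread behind the p-values. A second, dimmer probe set of Mki67 had a slope of -0.30. Limma called 0 of 34 slopes, as it called 0% of all genes higher and 0% lower. At an unadjusted p under 0.05 there were 2 of 34 and 1069 of 12941.

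Over those days 15 of 17 mitosis genes and 4 of 17 S phase genes had a slope above 0, beside 6397 of 12941 genes. The medians were 0.13 and -0.06 per day, beside -0.00344 for all genes. With 1 sample a day, each slope depends only on the first and last of these samples. The mitosis mean relative to ES cells moved from -0.38 (day 3) to -0.02 (day 4) and then -0.07 (day 5). It thus rose after day 3 but not after day 4. The S phase mean had -0.02, 0.07 and -0.16 in the same samples. Top2a, the topoisomerase that untangles sister chromatids, had 2213, 1848 and 2277 in ES cells, 2544 on day 1, 2675 and 1726 in the day 2 positive and negative sorts, 2012 in day 3 Sox1-negative cells and 1735, 2264 and 1953 in Sox1-positive cells. Its groups overlapped (log2 difference -0.09, limma adjusted p 0.819). Kif11, the motor that separates spindle poles, had 1161 to 1362 in ES cells, and was lowest in day 2 E-cadherin-negative and day 3 Sox1-positive cells (775 and 792). Birc5, survivin of the chromosomal passenger complex, was lowest in day 3 Sox1-positive cells (1249) and highest on day 1 (2443), around 1675 to 2296 in ES cells. Their log2 differences of Sox1-positive from ES cells were -0.23 and -0.26 (limma adjusted p 0.603 and 0.539).

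**Figure D4:**
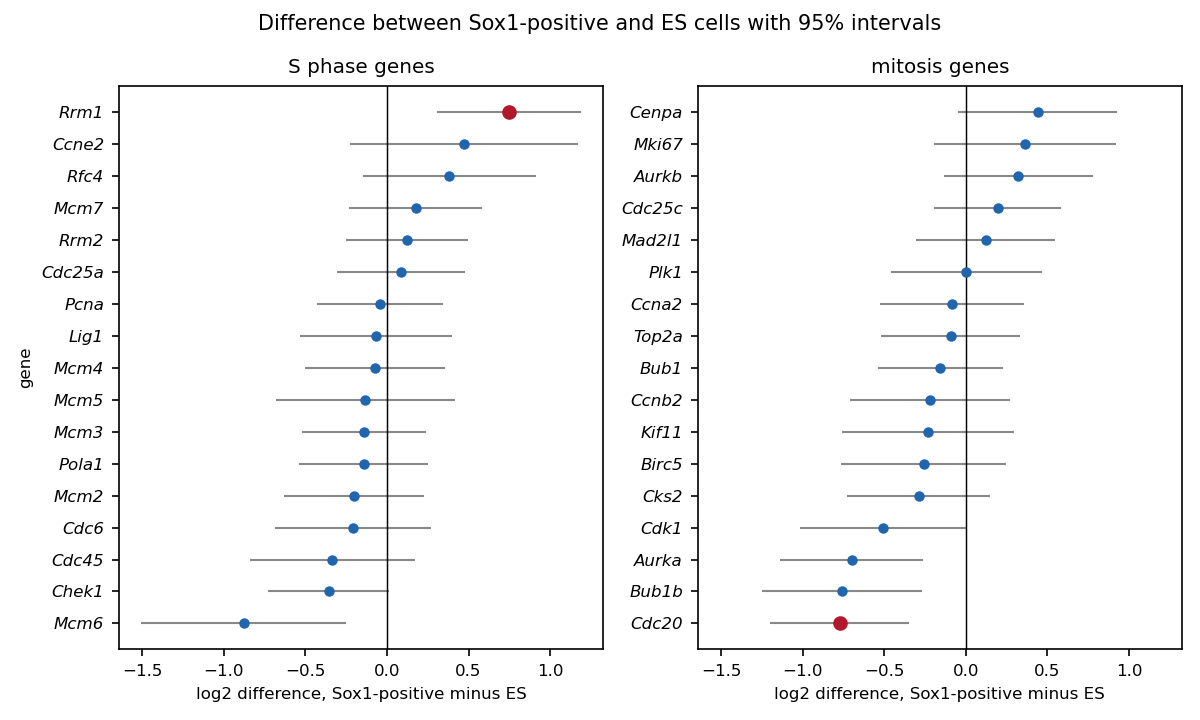
Log2 difference of Sox1-positive cells (n = 3) from ES cells (n = 3) for each gene, with the 95% interval of the limma fit as a line. Red points mark the genes called, Rrm1 (0.75) and Cdc20 (-0.77), and most other intervals cross 0.

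The 1 gene of the S phase set that was called higher in Sox1-positive than in ES cells was a gene of nucleotide supply. Rrm1, the large subunit of ribonucleotide reductase, had 1734, 1732 and 1530.2 in ES cells, 2352.5 on day 1, 1765 and 2037 in the day 2 positive and negative sorts, 1653 in day 3 Sox1-negative cells and 2331, 3356 and 2822 in Sox1-positive cells. The Sox1-positive samples lay above all ES samples, and day 1 lay above day 3 Sox1-positive cells. The mean rose from 1665 ± 117 (SD, n = 3) in ES cells to 2836 ± 513 (n = 3), which is a log2 change of 0.75 (SE 0.192) with a limma adjusted p of 0.0441. A second tested probe set did not follow, with a difference of -0.10 and a mean of 0.32 over both. The call ended with 75th percentile scaling, a pseudocount of 1 and no filter, without ES 1, ES 2, ES 3, day 4 or day 5, and without ES 3 and day 5 together (highest adjusted p 0.217).

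Rrm2, the small subunit that limits the enzyme, had 3294, 3453 and 3008 in ES cells, 3161 on day 1, 2091 and 3025 in the day 2 positive and negative sorts, 2256 in day 3 Sox1-negative cells and 3437, 3433 and 3738 in Sox1-positive cells. The Sox1-positive samples lay near or above the highest ES sample and above every other aggregate sample. Their log2 difference from ES cells was 0.12 (limma adjusted p 0.716). Tyms, which makes dTMP, had 13.6 to 135 over the 10 samples and was not tested.

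None of the 6 helicase subunits, Mcm2 to Mcm7, passed the test. Mcm2 had 3711, 2864 and 2882 in ES cells, 2081 on day 1, 2982 and 2585 in the day 2 positive and negative sorts, 3416 in day 3 Sox1-negative cells and 2999.8, 2452 and 2739 in Sox1-positive cells. Day 1 was the lowest and the groups overlapped. The log2 differences of Sox1-positive from ES cells were -0.20 for Mcm2, -0.14 for Mcm3, -0.07 for Mcm4, -0.13 for Mcm5 and 0.18 for Mcm7, with limma adjusted p between 0.577 and 0.863. A further probe set of Mcm3 had -0.25 (limma adjusted p 0.457). Those of Mcm5 had -0.44 and, in a dim one, 0.34 (limma adjusted p 0.35 and 0.67). In the former all Sox1-positive samples lay below all ES samples. Mcm7 had 3966, 4138.5 and 3935 in Sox1-positive cells and 2791 to 3404 in the other aggregate samples, with ES cells at 3074, 3524.5 and 4125.5. Rrm2 and Mcm7 were the 2 of 34 genes (5.88%) whose Sox1-positive samples all lay on one side of the ES mean and whose other aggregate samples all lay on the other, as did 2.33% of all genes.

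Mcm6 had the largest difference of the 34 genes, without passing. It had 905, 892 and 1066 in ES cells, 795 on day 1, 849 and 340.5 in the day 2 positive and negative sorts, 658 in day 3 Sox1-negative cells and 399.7, 602 and 551 in Sox1-positive cells. All aggregate samples lay below the ES samples, and Sox1-positive cells differed by -0.88 (SE 0.266), short of the threshold (limma adjusted p 0.0879). A dimmer probe set of the gene had 0.10, and the mean over both was -0.39. In the day 2 sorts, which had 1 sample a side and no test, Mcm6 was the 1 gene of 34 that differed by 1 or more (-1.28, negative minus positive). The counts were thus 0 higher and 1 lower, beside 6.97% and 4.78% of all genes. Between day 3 Sox1-positive and Sox1-negative cells 0 of 34 differed so far, beside 6.86% of genes higher and 7.33% lower. The values nearest to 1 were -0.70 for Mcm6, 0.65 for Rfc4 and 0.60 for Rrm2. The dimmer probe set of Mcm6 did not follow, with -0.21 in the day 2 sorts and 0.52 in the day 3 sorts.

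Pcna, the sliding clamp, had 5879, 5005 and 5099.6 in ES cells, 4441 on day 1, 4741 and 5719 in the day 2 positive and negative sorts, 5331 in day 3 Sox1-negative cells and 5543, 4829.7 and 5125 in Sox1-positive cells. It had a range of 0.403 on the log2 scale over all 10 samples, beside a median of 1.14 for all genes. The 95% interval of its difference in Sox1-positive cells ran from -0.43 to 0.34. Of the origin and fork genes, Cdc6 had -0.21, Cdc45 -0.34, Pola1 -0.14 and Lig1 -0.07 in Sox1-positive against ES cells, and Rfc4, a subunit of the clamp loader, had 0.38 (limma adjusted p from 0.365 to 0.888). Cdc6, Cdc45, Lig1, Mcm4, Mcm5 and Cdc25a had their lowest value of the 10 samples on day 5, 6 of the 17 S phase genes, and 6 had their highest on day 1. Both days were lone samples, and the share of all genes with these extremes was not counted. Further tested probe sets differed. That of Cdc25a was also lowest on day 5 (807), but that of Cdc45 was highest there (1355), with a difference of 0.31 from ES cells. Those of Mcm5 were lowest on day 4 (3511) and in day 2 E-cadherin-positive cells (50.9).

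Of the regulators of S phase, Chek1, the replication checkpoint kinase, had 1086, 1256 and 1174 in ES cells and 859.5 to 1015 in the 7 aggregate samples, with no overlap. Its log2 difference was -0.36 in Sox1-positive cells (limma adjusted p 0.217) and -0.33 in the others (0.518). Ccne2, cyclin E2, had 744 to 1098 in ES cells and 1125 to 1827 in all aggregate samples. Its difference of 0.47 did not pass (limma adjusted p 0.393), and a further probe set had 32.1 to 69.8 over all samples and was too dim to be tested. Cdc25a, the phosphatase of S phase entry, had the narrowest range of the 34 genes, 0.347 on the log2 scale, in the probe set used (1133 to 1446). Its further tested probe set had a wider range (807 to 1316).

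The 95% intervals give the precision of the fit for the 1 probe set used for each gene, with no adjustment for the number of genes. They rest on a spread that could be technical and that also holds any change over days. Other probe sets of some genes reached further, as for Plk1 (-1.06 to 0.01). The share of all genes with an interval within 1 of 0 was not counted. For Sox1-positive against ES cells 14 of 17 S phase genes and 13 of 17 mitosis genes had an interval within 1 of 0 on the log2 scale. The lowest bound was that of Mcm6 (-1.51) and the highest that of Rrm1 (1.19). Cdc20, Bub1b, Aurka, Mcm6 and Chek1, 5 of 34 genes (14.7%), lay below all ES samples in all 7 aggregate samples, as did 4.04% of all genes. Ccne2 lay above them, 1 of 34 (2.94%), beside 2.62% of all genes. The 7 samples were also compared with ES cells together, a fit chosen after these values were seen. Limma called 0 of 34 genes, beside 0.0232% of all genes higher and 0.0773% lower. An unadjusted p under 0.05 was found for 6 of 34 (17.6%) and for 1935 of all genes (15.0%). Aurka had -0.62 (SE 0.171, adjusted p 0.182) in that limma fit, with a 95% interval of -0.997 to -0.248, and Cdc20 had -0.67 (adjusted p 0.12).

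Other genes of the same machinery were taken from lists written by role, to be read against the 6.4% of all genes that rose and the 6.17% that fell. Of 46 other replication genes tested, 1 fell (2.17%) and 0 rose in Sox1-positive against ES cells in limma, with a median log2 difference of -0.14. It was Orc1, a subunit of the origin recognition complex, which fell from 601 ± 88.5 (SD, n = 3) in ES cells to 314 ± 8.35 (n = 3), which is a log2 change of -0.89 (limma adjusted p 0.0171). Of 54 other mitosis genes, 4 fell (7.41%, near the share of all genes) and 0 rose, with a median of -0.12. Ube2s, a ubiquitin-conjugating enzyme of APC/C, had 4175, 4206 and 4398 in ES cells and 1819, 2222 and 2011 in Sox1-positive cells, with 2890 to 3728 in the other aggregate samples between them. It fell by 1.08 on the log2 scale (limma adjusted p 0.00667). Ect2, which acts in cytokinesis, fell by 0.94 (0.0148), and Fbxo5, the APC/C inhibitor Emi1, fell by 0.84 (0.0303), with limma adjusted p in brackets. The fourth, named after its values were seen, was the spindle protein gene Dlgap5, which fell by 0.66 (limma adjusted p 0.0419). The calls of Orc1 and Ect2 ended without day 4, that of Ect2 also without ES 2, and those of Fbxo5 and Dlgap5 in most fits that left out 1 sample (highest adjusted p 0.0923, 0.0628, 0.147 and 0.19).

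Of 18 E2F, MuvB and RB genes tested, 2 fell (11.1%, beside 6.17% of all genes) and 0 rose in Sox1-positive cells, with a median of -0.13. Mybl2, which encodes B-MYB, had 4944, 3811 and 4048 in ES cells, 3834 on day 1, 2960 and 843 in the day 2 positive and negative sorts, 3000.4 in day 3 Sox1-negative cells and 819, 760.3 and 628 in Sox1-positive cells. The day 2 E-cadherin-negative sample thus lay with the Sox1-positive samples, and the other aggregate samples lay within or below the ES range. The fall in Sox1-positive cells was 2.51 on the log2 scale (SE 0.190, limma adjusted p 0.000381). E2f8, a repressor among the E2F factors, had 540.3 to 699 in ES cells and 237 to 388 in all 7 aggregate samples, and fell by 1.04 in Sox1-positive cells (limma adjusted p 0.0135). That call ended without ES 2 or day 4 (highest adjusted p 0.0729). Foxm1 had 0.45 (limma adjusted p 0.221).

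Of 10 CDK inhibitor and cell cycle exit genes tested, 1 rose and 1 fell in Sox1-positive cells in limma, with a median of 0.15. Ccng2, an atypical cyclin linked to cell cycle arrest, had 109, 92.6 and 147 in ES cells, 175 to 483 in the 4 other aggregate samples and 397, 456 and 555 in Sox1-positive cells, a log2 change of 1.89 (limma adjusted p 0.00217). Gadd45a, a stress response gene, fell by 1.34 (limma adjusted p 0.00467). The inhibitors Cdkn1a and Cdkn1c had -0.08 and 0.31 (limma adjusted p 0.92 and 0.838). In the direct comparison of Sox1-positive with the other aggregate samples limma called 0 genes of these 4 lists, with an unadjusted p under 0.05 for 6 of 46, 9 of 54, 5 of 18 and 2 of 10, beside 22.0% of all genes. Without the day 2 E-cadherin-negative sample, where calls over all genes went from 226 to 1321 of 12941, Mybl2 (-2.12), Ube2s, Gadd45a and Ccng2 were called there, with an adjusted p of 0.00133 for Mybl2 in limma. That sample lay with the Sox1-positive samples for Mybl2 and Ccng2, so leaving it out widened their differences (from -1.64 for Mybl2). Of these lists, only the genes called against ES cells were followed in that fit. With all samples kept, Ube2s was called in 4 other alternatives (pseudocount of 64, filter at the 60th percentile, mean-variance trend, adjustment within each chip).

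**Figure D5:**
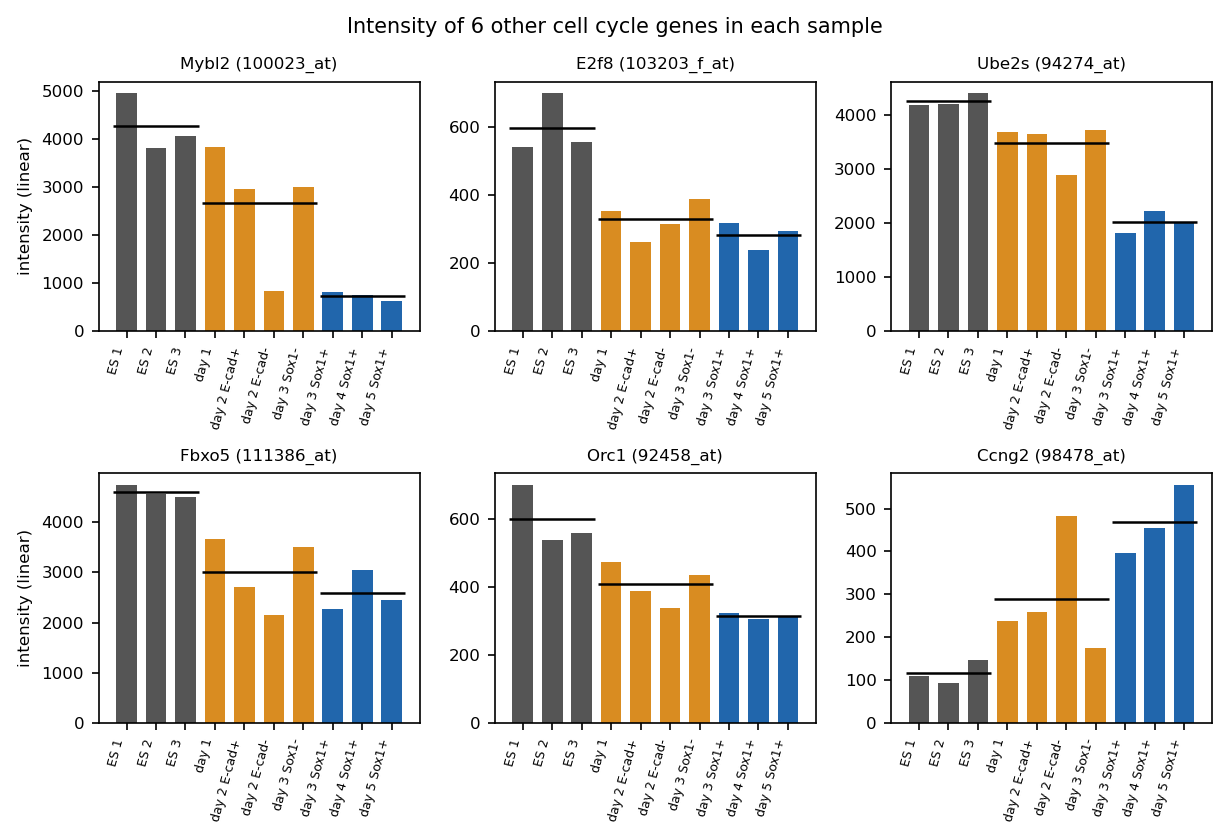
Linear intensity of Mybl2, E2f8, Ube2s, Fbxo5, Orc1 and Ccng2 in each of 10 samples (grey bars for ES, orange for other aggregate cells, blue for Sox1-positive cells), with a black line at the mean of each set. Mybl2 is low in the 3 Sox1-positive samples and in day 2 E-cadherin-negative cells (843), and Ccng2 is high in the same 4 samples.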

How the data were processed

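Each deposited table gives a linear intensity for every probe set, already scaled per array. The software that made it is not given in the sources used here. Labelled cRNA was hybridised to 30 arrays (10 samples on 3 chips), per the labels' protocols. Their number limits the precision. Probe sets were named by the platform tables of GEO, with symbols updated by Entrez ID to RefSeq names (GRCm38.p6). Values were analysed as log2 of intensity plus 16. Probe sets with a mean intensity under the 30th percentile of their chip (78.6, 117 and 102) were left out, which kept 25690 probe sets, 49 of the 55 described here. For each gene the probe set with the highest mean log2 value was used, 12941 genes in all.

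Groups were compared with limma 3.58.1 (R 4.3.3) by lmFit and eBayes over all probe sets of each chip, with Benjamini-Hochberg adjustment over the 3 chips. Lone samples got no test. The limma script was first tested on simulated data. Members, lists and tests were chosen with earlier results of these data known. All members are named, with values in every sample for genes called and 7 fixed genes (further genes given in full were picked with values in view), and up to 3 called rises and falls of each other list. Alternatives were quantile normalization, 75th percentile scaling, other pseudocounts (1, 64), other filters (none, 60th percentile), a mean-variance trend, adjustment within each chip, means over probe sets, lists without genes active in both phases, and leaving out samples. Figures were drawn with matplotlib 3.10.9.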

Additional observations from a re-analysis of the deposited data

Results flagged for a closer look

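In 2 of the 34 genes every Sox1-positive sample lay above the ES mean and every other aggregate sample below it. Counting either direction, that is 5.88% of the 34 genes and 2.33% of all 12941 genes. For Rrm2 the log2 difference between the 3 Sox1-positive and the 4 other aggregate samples was 0.44 (limma adjusted p 0.25), and for Mcm7 it was 0.38 (limma adjusted p 0.213). Neither difference passed the test, and day and sort cannot be told apart in it.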

How the results depend on the processing

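Only 2 of 34 genes were called, so counts turn on single calls. For Sox1-positive against ES cells the count was 1 with a pseudocount of 1, 0 with no filter, 4 with a pseudocount of 64, 5 with a filter at the 60th percentile, 4 with a mean-variance trend and 4 with adjustment within each chip. Over all genes the counts under these settings, in this order, were 1502, 1213, 1868, 1609, 2003 and 1713, against 1626. Other filters also changed how many genes were tested. Leaving out 1 sample gave 0 to 1 of the 34 genes. Leaving out ES 3 and day 5 together, which was chosen after seeing the data, gave 0. Aurka passed in 6 of 15 alternatives (adjusted p 0.0298 to 0.242) and Bub1b in 4 (0.0265 to 0.274). The signs of Cdc20, Aurka, Bub1b and Rrm1 held in all 15. The other tested comparisons gave 0 calls among the 34 genes in all their alternatives. The day 2 sorts had 2 genes past 1 with no filter, against 1. The gap between the phases moved by less than the SD of the ES samples in every alternative run. Over all genes the count for Sox1-positive against ES cells ran from 736 to 1224 when 1 sample was left out, against 1626. For Sox1-positive against other aggregate cells it was 226, and 78 to 509 under other settings. Leaving out 1 sample gave 1 (without day 2 E-cadherin-positive) to 1321 (without day 2 E-cadherin-negative). The cause was not tested. The calls of Orc1, Ect2, E2f8 and Ube2s also ended without ES 3 and day 5 together (adjusted p up to 0.0923), and those of Fbxo5 and Dlgap5 in 8 of 15 alternatives each. No paired analysis was possible because only the ES samples carry replicate numbers.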
